A study of Homo sapiens with 6 samples.

Results

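Summits inside the bodies of protein-coding genes are described in H1 human pluripotent stem cells, an established embryonic stem cell line, from 6 libraries made by ATAC-seq. The assay uses the Tn5 transposase to cut chromatin that is not tightly packed, and a summit is the base with the strongest signal in a peak of cuts. A summit was a member if it lay inside a protein-coding gene in the GRCh38 gene table of RefSeq and over 2000 bp from every end of a protein-coding gene. By this rule 120588 of 356720 summits were members, and 98594 others lay at gene ends and 137538 outside genes. All cells were grown in mTeSR1 on Matrigel, infected with lentivirus carrying a short hairpin RNA, and selected with puromycin 2 days later. There were 2 libraries of shHNRNPU #1, 2 of shHNRNPU #2 and 2 of shLUC, a hairpin against luciferase that serves as the control. The cells are 1 line, the libraries are named only as repeats, and no source used here says whether repeats were separate cultures, so p-values measure only the spread between these libraries. Summits carry no RNA level, so the knockdown was not checked here, and HNRNPU itself had no gene-body summit in any library.

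HNRNPU, also known as scaffold attachment factor A, binds RNA and DNA in the nucleus and is known as a component of the nuclear matrix, the subject named by the study. Open chromatin inside a gene is commonly an enhancer, an insulator site or an alternative promoter, and most of a long gene is intron. The longest human genes include many that encode neuronal adhesion and synaptic proteins, and these genes commonly stand in stretches of the genome with few neighbours. The gene table gives only the outer limits of genes, so exons and introns were not analysed here.

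The lists held from 52168 to 63519 summits, their read depth is unknown, so where no summit is listed the site was only not called. At most 2.2% of a library's summits had the identical position in another library. Summits stood at the ends of 5 of 6 pluripotent stem cell marker genes in all 6 libraries, the exception being LIN28B with none. All 3 neural, 2 endoderm, 2 mesoderm and 3 fibroblast markers had them too, so that summits at gene ends did not separate these cell types and the label could not be checked in this way. A summit list is made from many cells, and fewer cells with an open site cannot be told apart from less opening in each cell.

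Some gene-body summits mark alternative promoters. The sequences below are the 250 bases before internal transcription starts of genes whose summit counts separated the groups, and they are shown because the largest differences between the groups, given later, did not lie at such starts. They come from the RefSeq promoter table of GRCh38.p14 and are written 5′ to 3′ along the gene. Capitals mark GGGCGG (the GC box), CCAAT and TATAAA, searched on both strands, where a match on the other strand appears as the reverse complement and matches may overlap. The first 5 starts had a summit within 500 bp in all 6 libraries.

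CTNNA2 chr2:79512801-79513050 (+ strand): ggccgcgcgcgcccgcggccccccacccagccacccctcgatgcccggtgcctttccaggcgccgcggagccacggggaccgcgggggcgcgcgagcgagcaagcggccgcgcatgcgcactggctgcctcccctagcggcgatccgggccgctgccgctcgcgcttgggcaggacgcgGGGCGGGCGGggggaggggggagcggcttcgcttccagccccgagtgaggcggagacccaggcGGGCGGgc
ROBO2 chr3:77039849-77040098 (+ strand): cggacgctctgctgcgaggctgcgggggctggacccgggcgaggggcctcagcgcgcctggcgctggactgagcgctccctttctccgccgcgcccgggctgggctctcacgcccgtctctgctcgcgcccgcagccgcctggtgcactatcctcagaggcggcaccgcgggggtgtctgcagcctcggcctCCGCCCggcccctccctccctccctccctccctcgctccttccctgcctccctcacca
ROBO1 chr3:79019460-79019709 (- strand): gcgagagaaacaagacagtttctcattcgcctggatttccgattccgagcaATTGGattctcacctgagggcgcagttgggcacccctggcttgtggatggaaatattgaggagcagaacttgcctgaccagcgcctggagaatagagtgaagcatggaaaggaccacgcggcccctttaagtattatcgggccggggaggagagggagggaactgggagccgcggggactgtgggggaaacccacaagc
JARID2 chr6:15248605-15248854 (+ strand): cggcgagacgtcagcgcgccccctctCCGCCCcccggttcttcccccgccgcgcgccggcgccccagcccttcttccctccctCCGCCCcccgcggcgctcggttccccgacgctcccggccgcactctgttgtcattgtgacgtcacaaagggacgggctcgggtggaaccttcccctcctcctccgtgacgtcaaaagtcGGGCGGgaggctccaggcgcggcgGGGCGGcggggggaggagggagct
SEPTIN9 chr17:77373087-77373336 (+ strand): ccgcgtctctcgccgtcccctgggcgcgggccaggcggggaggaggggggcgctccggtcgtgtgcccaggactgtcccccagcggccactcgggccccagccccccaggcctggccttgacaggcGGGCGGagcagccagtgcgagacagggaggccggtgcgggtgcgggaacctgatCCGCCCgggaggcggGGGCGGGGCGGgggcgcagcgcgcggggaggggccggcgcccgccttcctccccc

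The next pair, from inside CTNNA2 and ROBO2, had no summit within 500 bp in any library.

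CTNNA2 chr2:79522933-79523182 (+ strand): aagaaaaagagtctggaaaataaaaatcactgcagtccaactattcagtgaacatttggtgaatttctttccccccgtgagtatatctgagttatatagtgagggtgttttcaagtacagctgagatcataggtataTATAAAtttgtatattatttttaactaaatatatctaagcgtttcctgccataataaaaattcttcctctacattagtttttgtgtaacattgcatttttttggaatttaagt
ROBO2 chr3:76310630-76310879 (+ strand): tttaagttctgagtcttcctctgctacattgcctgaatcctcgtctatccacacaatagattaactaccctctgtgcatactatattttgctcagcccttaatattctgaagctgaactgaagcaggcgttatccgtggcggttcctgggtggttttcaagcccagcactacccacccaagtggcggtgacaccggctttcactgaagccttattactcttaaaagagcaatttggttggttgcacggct

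The GC content was 81.2% before the open CTNNA2 start and 30.0% before the closed one. It was 76.0% before the open ROBO2 start and 46.8% before the closed one. A match to these letters is a description of the sequence and not a binding site, and a missing match says only that the letters are not in the window. Of 35084 promoters in the table, 42.6% held GGGCGG, 32.0% held CCAAT and 10.7% held TATAAA in their 250 bases.

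These 7 starts had their counterparts across the genome. The table gave 3822 internal starts that belonged to their host gene and lay over 2000 bp from every protein-coding gene end, in 2711 genes. A summit stood within 500 bp in all 6 libraries at 1067 of them (27.9%), and in none at 1964 (51.4%). The 250 bases before the starts open in all 6 libraries had a median GC content of 66.4% and a median observed to expected CpG ratio of 0.763, against 47.2% and 0.236 before the starts open in none. GGGCGG was found in 66.0% of the former and 15.3% of the latter, and TATAAA in 3.94% and 16.6%. Open internal starts were thus rich in CpG and GC boxes, whereas CCAAT was closer between them, at 35.2% and 30.2%. Starts of long non-coding RNAs inside coding genes were less often open, with a summit in all 6 libraries at 251 of 2756 (9.11%).

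Over all 3822 internal starts, 11 had a summit in both shLUC libraries and no shHNRNPU library, and 21 the reverse. Of all loci of the series, described below, 1.93% and 0.88% did so. The counts at starts cannot be read directly beside these shares. Every locus held a summit by definition, whereas 51.4% of internal starts had none in any library and 791 had summits in 1 to 5 libraries. Starts were also searched within 500 bp and loci within 250 bp. The order of the counts at starts was the reverse of that over all loci. In the genes named here the starts with summits only in both shLUC libraries were a GPC6 start and a SEPTIN9 start. The GPC6 start scored 4.24 and 5.26 with shLUC, and the SEPTIN9 start 2.59 and 3.92. The 5 open starts shown above were chosen for a summit in every library, so only the rank of these summits is described. Rank is given as a percentile of the summit's score within its own library, where 100 is the strongest, since scores are not normalized between libraries. The CTNNA2 start had summits at percentiles 95.6 and 93.1 with shHNRNPU #1, 87.8 and 89.8 with shHNRNPU #2, and 82.4 and 84.5 with shLUC. The ROBO2 start had percentiles of 89.3 and 83.9, 87.1 and 80.4, and 74.4 and 69.8 in the same order. At both, every shHNRNPU library ranked the start above both shLUC libraries, although the bodies of both genes held fewer summits, as described below. The ROBO1 start went the other way, with 89.3, 89.5, 90.3 and 84.4 with shHNRNPU against 96.8 and 92.1 with shLUC. JARID2, which encodes a partner of Polycomb repressive complex 2, had a start at 78.9, 82.1, 83.7 and 73.8 with shHNRNPU and at 52.3 and 55.7 with shLUC, the widest gap of the 5. The JARID2 start lies only 2.79 kb from the outer start of its gene, just past the limit of 2000 bp. The rest of the 5 lie 91.8 kb (SEPTIN9) to 1133.4 kb (ROBO2) from theirs. The SEPTIN9 start had 89.9, 91.4, 95.1 and 93.7 against 74.3 and 85.6, again without overlap. Other starts of the named genes also had a summit in every library. The groups overlapped at a DLG2 start, with 83.8, 90.4, 86.0 and 83.8 against 88.9 and 94.7. They overlapped too at an ANKS1B start, with 76.3, 72.7, 67.9 and 69.0 against 72.1 and 52.2, and at another SEPTIN9 start. At a GSE1 start they did not. The 5 shown are thus no measure of how often such starts separate. Over all internal starts, the median percentile reached 73.8 ± 2.00 in the shHNRNPU libraries (SD, n = 4) against 70.8 ± 0.287 in the controls (SD, n = 2). At gene ends its mean was higher as well, 76.5 against 74.2, but there the groups overlapped (exact permutation test, p = 0.267). These are ranks within lists of unequal length and make-up, not changes in strength.

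As a share of each library, gene-body summits as a whole did not separate the groups. They made up 34.0% and 34.6% of summits with shHNRNPU #1, 33.5% and 32.7% with shHNRNPU #2, and 33.9% in both shLUC libraries. The Wilson 95% interval, which covers counting error only, ran from 32.3% to 33.1% in the smallest list, where it was widest. The difference of -0.211 percentage points did not exceed the spread among the knockdown libraries (p = 0.933 in an exact permutation test, two-sided, over the 15 ways to choose 2 controls). It was 0.0949 points when every list was shortened to 52168 summits and 0.115 without shHNRNPU #2 repeat 2, so its direction is not settled. With summits scoring at least 5 only it was -0.873 points and with a gene-end distance of 5000 bp -0.503, in both with overlap. The smallest two-sided p that 4 libraries against 2 allow is 0.133, so no comparison of single values here can reach 0.05, and 0.133 means only that the groups did not overlap. Gene ends took a larger share in all 4 shHNRNPU libraries, 28.4%, 26.7%, 28.0% and 30.7%, than with shLUC, 26.1% and 26.6%.

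Within gene bodies, the summits were distributed differently by the length of the gene. Genes over 500 kb held 3274 and 3638 summits with shHNRNPU #1, 3374 and 2720 with shHNRNPU #2, and 4037 and 3860 with shLUC. Every shHNRNPU library was below both shLUC libraries, with a mean difference of -17.7%. As shares of the libraries' summits these were 5.54%, 5.73%, 5.78% and 5.21% with shHNRNPU, or 5.57 ± 0.255 (SD, n = 4), and 6.49% and 6.29% with shLUC, or 6.39 ± 0.143 (SD, n = 2). The difference of -0.825 points was larger than the spread between libraries of either group (exact permutation test, p = 0.133), and each hairpin showed it, by -0.755 points for shHNRNPU #1 and -0.895 for shHNRNPU #2.

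Short genes differed in the other direction. Genes under 50 kb held 6.44%, 6.52%, 6.20% and 6.46% of summits with shHNRNPU and 5.75% and 5.96% with shLUC, a difference of 0.548 points without overlap. For genes of 50 to 200 kb the shares were 13.3%, 13.4%, 12.9% and 12.8% against 12.6% and 12.8%, a difference of 0.414 points in which the nearest libraries of the groups almost met. Genes of 200 to 500 kb had shares of 8.72%, 8.92%, 8.60% and 8.27% against 9.03% and 8.93%, a difference of -0.348 points that was again narrow. For each of these 3 classes the groups did not overlap (exact permutation tests, p = 0.133). The 200 to 500 kb class lost this separation with lists of one size, where its difference was -0.145 points, on autosomes only and with the ends of genes of all biotypes (exact permutation tests, p = 0.267 in each). The 50 to 200 kb class also lost it with the ends of all biotypes. With summits scoring at least 5 only, the difference of the class over 500 kb was -0.540 points, still without overlap, that of the class under 50 kb was 0.243, with overlap, and that of the 50 to 200 kb class was -0.0855. The longest genes were therefore lower and the shortest higher in these settings, while the direction of the 50 to 200 kb class depended on the weak summits.

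**Figure D1:**
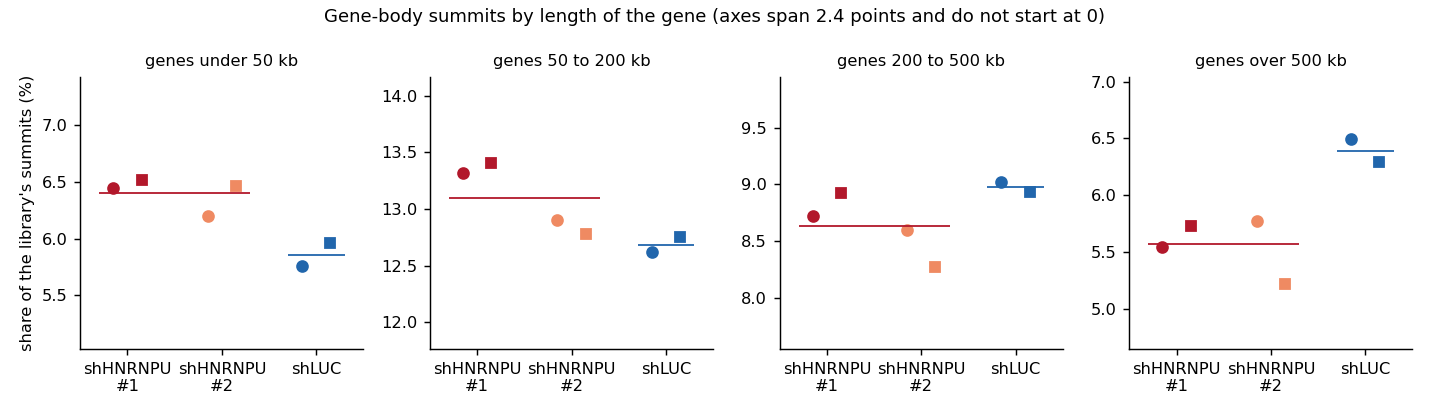
Share of each library's summits (%, y axis) that lay inside genes of 4 length classes, with 1 point per library (circles repeat 1, squares repeat 2) and lines at the mean of the 4 shHNRNPU and the 2 shLUC libraries. In genes over 500 kb the shHNRNPU libraries sit between 5.21% and 5.78% and the shLUC libraries at 6.29% and 6.49%, and in genes under 50 kb the order is the opposite.

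Per megabase of gene body, long genes were also the sparsest in summits. Bodies of genes over 500 kb held 12.6, 13.9, 12.9 and 10.4 summits per Mb with shHNRNPU and 15.5 and 14.8 with shLUC. Bodies of genes under 50 kb held 21.7, 23.7, 20.7 and 19.3 against 20.5 and 20.9, where the groups overlapped. The separation in short genes was thus one of shares and not of absolute numbers, while in the longest genes both separated.

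Gene by gene, counts were compared without a test: a gene was called lower when its counts in all 4 shHNRNPU libraries lay below both shLUC counts, and higher when above both. Of 17327 genes with a body, 9650 held a summit and 5324 held summits in all 6 libraries. Lower genes numbered 431, or 2.49% of the genes with a body, and higher genes 227, or 1.31%. The nearest libraries of the groups differed by a single summit in 338 of the lower and 208 of the higher genes, and by 2 or more in 93 and 19. When counts were scaled to 10000 summits per library, 596 genes were lower and 825 higher, so the balance of the directions over all genes depended on the scaling. A gene needs a summit in both shLUC libraries to be called lower, so more long than short genes could be called.

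Among the 315 genes over 500 kb, 79 were lower (25.1%) and 2 higher (0.635%), and the mean count was lower in 250 and higher in 55. Scaled to list length, 90 were lower and 17 higher, so this class kept its direction. In the 1084 genes of 200 to 500 kb, 114 were lower and 30 higher, and 155 and 87 after scaling. Of the 4870 genes of 50 to 200 kb, 167 were lower and 113 higher, but after scaling 239 and 442. Of the 11058 genes under 50 kb, 71 were lower and 82 higher, and 112 and 279 after scaling. The direction thus turned with the scaling in the 50 to 200 kb class and not in the other 3. The higher genes over 500 kb include GSE1, described below.

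**Figure D2:**
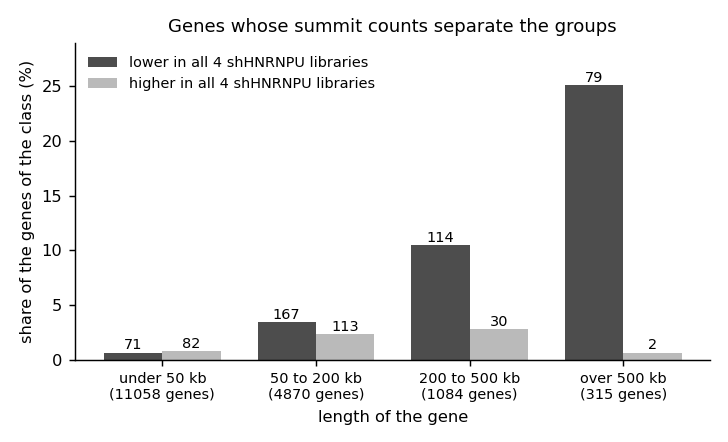
Share of the protein-coding genes of each length class (%, y axis) whose gene-body summit counts in all 4 shHNRNPU libraries lay below (dark bars) or above (light bars) both shLUC counts, with the number of genes over each bar. Lower genes reach 25.1% of the class over 500 kb, where higher genes make up 0.635%, while under 50 kb the bars are at 0.642% and 0.742%.

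The 12 lower genes with the largest difference in mean count were all over 500 kb. They were ranked by absolute difference, which favours genes with many summits. CTNNA2 encodes alpha-N-catenin, which links cadherins to actin in neurons, and spans chr2:79185377-80648780 (gene ID 1496). It held 17 and 21 summits with shHNRNPU #1, 16 and 10 with shHNRNPU #2, and 26 and 35 with shLUC, a mean of 16.0 ± 4.55 (SD, n = 4) against 30.5 ± 6.36 (SD, n = 2). Its summits fell at 50 loci, of which 3 were present in all 6 libraries, 17 in shLUC libraries alone and 6 in shHNRNPU libraries alone.

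The receptors for SLIT guidance cues showed the same order. ROBO2 (chr3:75906675-77649964) held 11, 18, 19 and 10 summits with shHNRNPU and 28 and 24 with shLUC. ROBO1 (chr3:78597239-79767998) held 9, 8, 7 and 8 against 19 and 15, so that its 4 shHNRNPU libraries differed by no more than 2 summits and its mean differed by -52.9%. DCC, the receptor for netrin, held 5, 9, 7 and 6 against 13 and 15. None of these 3 genes overlapped between the groups, and the nearest libraries stood 5, 6 and 4 summits apart.

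Adhesion molecules of the neuronal surface followed. LSAMP, a membrane-anchored immunoglobulin-domain protein (chr3:115802374-116445487), held 6, 8, 9 and 4 summits with shHNRNPU and 17 and 18 with shLUC. This gap of 8 summits between the nearest libraries was the widest of the 24 genes with the largest differences, and 16 of its 30 loci had summits in shLUC libraries alone. PTPRD, a receptor tyrosine phosphatase that organises synapses, held 20, 23, 20 and 12 against 27 and 37. CNTNAP2, a neurexin family protein of the axon and the gene with the most gene-body summits in the series, held 35, 37, 37 and 25 against 49 and 42. DLG2, a scaffold of the postsynaptic density, held 29, 36, 32 and 26 against 45 and 37, so that its groups stood only 1 summit apart.

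The other members of these 12 have varied functions. ANKS1B, a postsynaptic ankyrin repeat protein, held 20, 24, 26 and 21 summits with shHNRNPU and 34 and 29 with shLUC, and it overlaps APAF1 and GARIN6. PRKG1, a cGMP-dependent protein kinase, held 15, 19, 16 and 15 against 22 and 25. GPC6, a cell-surface heparan sulphate proteoglycan, held 15, 18, 20 and 16 against 26 and 23. These 3 genes each stood 3 summits apart. LRP1B, a large receptor of the low-density lipoprotein receptor family, held 18, 17, 13 and 7 against 23 and 19, with a gap of 1. All 12 genes were also lower per 10000 summits.

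Not every gene with many summits followed. RBFOX1, an RNA-binding regulator of neuronal splicing, held 40, 42, 31 and 31 summits with shHNRNPU and 38 and 41 with shLUC. DAB1, an adaptor of reelin signalling, held 36, 38, 33 and 27 against 37 and 38. NTM, an adhesion molecule of the same family as LSAMP, held 41, 35, 29 and 25 against 30 and 30. In all 3, which with CNTNAP2 and DLG2 are the 5 genes with the most summits, the groups overlapped.

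The 12 higher genes with the largest differences were between 126.0 and 506.7 kb long, and GSE1 was the only one over 500 kb. CUX1, which encodes a homeodomain transcription factor, held 20 and 23 summits with shHNRNPU #1, 15 and 16 with shHNRNPU #2, and 12 and 9 with shLUC, a mean of 18.5 ± 3.70 (SD, n = 4) against 10.5 ± 2.12 (SD, n = 2). CMIP, at chr16:81444808-81711762, held 10, 7, 9 and 10 against 2 and 3. None of the 26 loci of CMIP was present in all 6 libraries, and 21 had summits in shHNRNPU libraries alone. GSE1, at chr16:85169512-85676200, held 30, 39, 28 and 29 against 24 and 24, and it overlaps GINS2.

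Smaller counts separated at the next genes. GLI2, a transcription factor of the hedgehog pathway, held 9, 12, 9 and 14 summits with shHNRNPU and 5 and 6 with shLUC. ZNRF3, a ubiquitin ligase that removes WNT receptors from the cell surface, held 10, 9, 9 and 11 against 4 and 6. TIAM1, an activator of the GTPase RAC, held 12, 10, 10 and 10 against 6 and 4. At each of these 3 genes the groups stood 3 or 4 summits apart.

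JARID2 held 9, 9, 6 and 7 gene-body summits with shHNRNPU and 4 and 4 with shLUC. BCOR, a corepressor found in a variant Polycomb complex, held 11, 11, 7 and 9 against 6 and 5. KDM4B, a histone demethylase, held 5, 11, 6 and 8 against 3 and 4. The counts are small, and the groups stood 2 summits apart at JARID2 and 1 at BCOR and KDM4B. NEDD4L, a ubiquitin ligase, held 15, 13, 12 and 15 against 10 and 8. SEPTIN9, a cytoskeletal GTPase, held 18, 19, 16 and 16 against 15 and 11, and TMEM132C held 15, 12, 10 and 10 against 7 and 9. All 12 genes were also higher per 10000 summits.

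**Figure D3:**
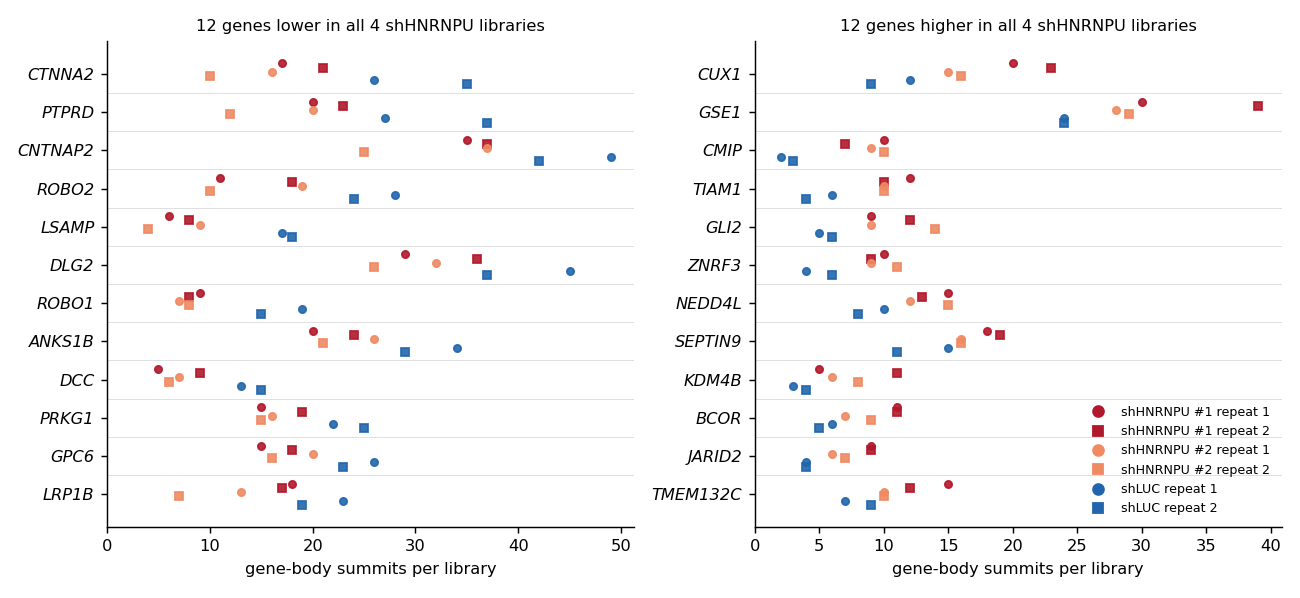
Gene-body summits per library (x axis) of the 12 lower and the 12 higher genes with the largest difference in mean count, with 1 point per library (circles repeat 1, squares repeat 2). At LSAMP the shHNRNPU libraries lie between 4 and 9 and the shLUC libraries at 17 and 18, while at CUX1 the shHNRNPU libraries lie between 15 and 23 and the shLUC libraries at 12 and 9.

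Lists of genes by function, chosen with results of these data known, are given as counts without a test. Of 36 neuronal adhesion and synapse genes, 35 of them over 500 kb, 18 were lower and none higher, and the mean was lower in 31. After scaling 18 were lower and 1 higher. Together they held 497, 574, 527 and 397 summits with shHNRNPU and 682 and 660 with shLUC, without overlap, and their median difference was -4.38 summits against 0 over all genes. CTNNA2, PTPRD, CNTNAP2 and ROBO2 had the largest differences. Since nearly all of these genes are over 500 kb, the values of that class are the ones to read beside them. In it 25.1% were lower, the mean was lower in 250 of 315 genes, and the median difference was -2.0 summits.

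Genes at common fragile sites, which break under replication stress and are long as well, had lower mean counts in all 10 cases, and 3 were called lower. All 10 are over 500 kb, where 250 of 315 genes had a lower mean and 25.1% were lower, so these counts are near those of the class. The 3 were LRP1B, the oxidoreductase gene WWOX with 13, 13, 10 and 12 summits against 17 and 15, and the exocyst gene EXOC4 with 9, 8, 8 and 9 against 10 and 10. EXOC4 lost its call when counts were scaled to list length. The 10 genes together held 119, 128, 114 and 94 summits with shHNRNPU and 167 and 136 with shLUC. Their median difference was -3.63 summits, against -2.0 in all genes over 500 kb.

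Of 14 genes of the pluripotent state with a body, 11 held a summit, none was lower and 2 were higher, JARID2 and USP44. Over all genes with a body 2.49% were lower and 1.31% higher, so none lower among 14 is near that share. After scaling 3 were higher and 1 lower. USP44, a deubiquitinase, held 2, 4, 2 and 2 summits with shHNRNPU and 1 and 1 with shLUC. Together the 14 genes held 37, 40, 29 and 32 summits against 28 and 28, so that the groups stood 1 summit apart. JARID2 alone held 9, 9, 6 and 7 of these against 4 and 4, so this separation rested on that gene. The median difference was 0.

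The remaining lists held few calls. Of 24 genes of FGF, WNT and TGF-beta signalling, 2 were lower and none higher, against 2.49% and 1.31% of all genes with a body. Both are among the 4 members over 500 kb, a class with 25.1% lower. These were GPC6 and the growth factor homologue FGF12, with 12, 12, 11 and 7 summits against 13 and 14. Of 24 chromatin regulators, 2 were lower and none higher. KMT2C, a histone H3 lysine methyltransferase, held 2, 1, 2 and 2 against 5 and 4, and SMARCA2, an ATPase of the BAF remodelling complex, held 4, 3, 4 and 5 against 6 and 7.

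Of 23 genes of the nuclear matrix, the lamina, CTCF and cohesin, 17 held a summit, 2 were lower and 1 was higher. The shares over all genes with a body are 2.49% lower and 1.31% higher. At each of the called genes the nearest libraries of the groups stood only 1 summit apart. LMNA, which encodes lamins A and C, held 6, 6, 7 and 6 summits with shHNRNPU and 8 and 8 with shLUC. SYNE1, a nesprin that ties the nuclear envelope to the cytoskeleton, held 7, 7, 7 and 5 against 16 and 8, and it overlaps the oestrogen receptor gene ESR1. SYNE1 is the only gene of this list over 500 kb, a class with 25.1% lower. SYNE2, a relative of SYNE1, was higher, with 8, 12, 8 and 8 against 6 and 7. The median difference was -0.375 summits for the signalling genes and 0 for the chromatin and the nuclear matrix genes.

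The lower number of summits in the longest genes lay away from annotated starts. Within 500 bp of internal starts, genes over 500 kb held 130, 134, 140 and 125 summits with shHNRNPU and 125 and 140 with shLUC, a difference of -0.25 between the means of 132.2 ± 6.34 (SD, n = 4) and 132.5 ± 10.6 (SD, n = 2). At starts of long non-coding RNAs in these genes there were 39, 41, 41 and 33 against 41 and 37. Over 500 bp from every listed start there were 3105, 3463, 3193 and 2562 against 3871 and 3683, a difference of -18.4% without overlap.

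Expressed as a ratio, the same genes held 2388, 2584, 2281 and 2050 summits away from starts per 100 at internal starts with shHNRNPU, and 3097 and 2631 with shLUC. Every shHNRNPU library was below both shLUC libraries, the nearest by a small margin (difference -538, exact permutation test, p = 0.133). Without shLUC repeat 1 the difference was -304.9, so that its size rested on that library. It was -346 with summits scoring at least 5 and -279 with lists of one size, both without overlap. In genes under 50 kb the ratio was 723, 760, 698 and 665 against 741 and 726, and the groups overlapped (difference -22.5, exact permutation test, p = 0.533).

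**Figure D4:**
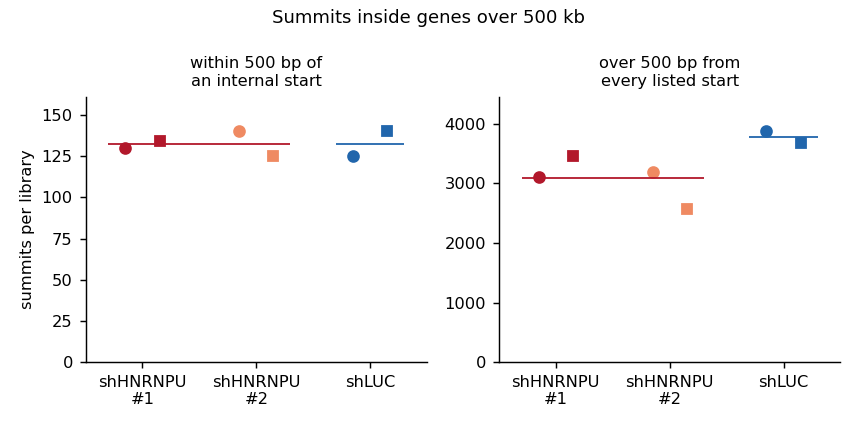
Summits per library (y axes from 0, with different scales) inside genes over 500 kb, within 500 bp of an internal start of the gene (left) and over 500 bp from every listed start (right), with 1 point per library and lines at the group means. On the left the groups overlap between 125 and 140 summits, and on the right the shHNRNPU libraries reach at most 3463 and the shLUC libraries at least 3683.

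The position of summits along the gene was examined next. In 1159 of the 1399 genes over 200 kb the strand was known from the promoter table. Each gene was divided into 4 stretches of equal length. From the start to the end of the gene, the share of all summits in these stretches differed by -0.275, -0.250, -0.279 and -0.229 points, and in none of them did the groups overlap. The difference was thus spread along the gene and was not limited to one end (exact permutation tests, p = 0.133 for each stretch).

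Distance from the nearest protein-coding gene end ordered the differences as well. At 2 to 10 kb from an end, gene-body summits made up 7.97%, 8.002%, 7.69% and 7.86% of all summits with shHNRNPU and 7.30% and 7.59% with shLUC, a difference of 0.438 points. Over 200 kb from an end they made up 2.57%, 2.63%, 2.71% and 2.41% against 3.07% and 3.00%, a difference of -0.456 points or -15.04%. The classes between had differences of 0.350 points at 10 to 50 kb and -0.541 points at 50 to 200 kb. The groups did not overlap in any of the 4 distance classes (exact permutation tests, p = 0.133). At 10 to 50 kb they almost met, at 13.361% with shHNRNPU #2 repeat 2 and 13.359% with shLUC repeat 1. In that class shHNRNPU #2 differed by only 0.0771 points. Summits within 10 kb of gene ends were thus a higher and those over 50 kb from them a lower share of the shHNRNPU lists.

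Gene length moved together with local gene density, counted as midpoints of protein-coding genes within 500 kb and divided at 7, its median over gene-body summits. In gene-sparse surroundings, genes over 500 kb held 5.31%, 5.46%, 5.53% and 4.96% of summits with shHNRNPU and 6.24% and 6.02% with shLUC, a difference of -0.819 points. In gene-dense surroundings they held 0.237%, 0.272%, 0.243% and 0.257% against 0.251% and 0.266%, with overlap. Conversely, genes under 50 kb differed by 0.525 points in gene-dense surroundings, without overlap, and by 0.0229 points in gene-sparse ones, with overlap.

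Summits outside genes moved in the same way. In gene-sparse surroundings they made up 23.7%, 25.0%, 25.4% and 22.9% of all summits with shHNRNPU and 27.5% and 26.7% with shLUC, a difference of -2.84 points. In gene-dense surroundings the difference was 0.967 points, and neither overlapped. Genes over 500 kb were lower relative to them, with 14.7, 14.8, 14.99 and 14.2 summits per 100 outside genes against 16.2 and 15.9. The difference was -1.39 or -8.64% (exact permutation test, p = 0.133). Within gene-sparse surroundings alone this ratio was 22.4, 21.8, 21.7 and 21.6 against 22.7 and 22.6. The difference there was smaller in percent, at -0.730 or -3.23% (exact permutation test, p = 0.133). Genes of 200 to 500 kb were not lower relative to summits outside genes. Their mean ratio was 22.8 with shHNRNPU and 22.6 with shLUC, with overlap (difference 0.197 or 0.870%, exact permutation test, p = 0.667). Whether gene length or gene density goes with the lower values of long genes was not tested further. The 2 cannot be told apart for genes over 500 kb, of which few summits lay in gene-dense surroundings.

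**Figure D5:**
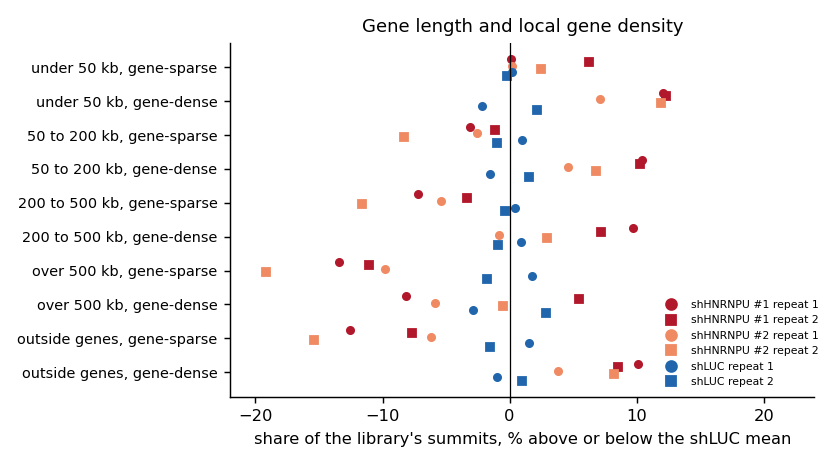
Share of each library's summits in genes of 4 length classes and outside genes, in gene-sparse and gene-dense surroundings, as a percentage above or below the mean of the shLUC libraries (x axis), with 1 point per library (circles repeat 1, squares repeat 2). Gene-sparse rows over 200 kb and outside genes lie left of 0 for all 4 shHNRNPU libraries, and in gene-dense rows under 200 kb and outside genes all 4 lie to the right.

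The lower and higher genes differed in their surroundings too, which is given as a description. The median length was 166.7 kb for lower genes, 76.0 kb for higher genes and 58.6 kb for the others with a summit. The median number of neighbouring genes was 6 around lower genes, 11 around higher genes and 10 around the others. Between 50 and 200 kb, where the groups of genes have similar lengths, it was 7, 10 and 9.

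Individual sites were compared as loci, made by joining summits of the 6 libraries that lay within 250 bp. Gene bodies held 46487 of 123131 loci. Only 6860 of them (14.8%) were present in all 6 libraries, against 40.6% of loci at gene ends, and 20319 (43.7%) were present in a single library. Loci were called lost when both shLUC libraries and no shHNRNPU library had them, and gained when all 4 shHNRNPU libraries and no shLUC library had them. In gene bodies 937 loci were lost, or 2.02%, against 1.93% of all loci, and 384 were gained, or 0.826%, against 0.88% of all loci. These shares are near those of all loci and are not particular to gene bodies. The calls are not symmetric, since a lost locus needs summits in both shLUC libraries and a gained one in all 4 shHNRNPU libraries. The numbers 937 and 384 therefore give no measure of net loss.

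Across length classes the share of lost loci was 1.37% under 50 kb, 1.71% from 50 to 200 kb, 2.38% from 200 to 500 kb and 2.66% over 500 kb. The share of gained loci ran in the opposite order, 1.28%, 0.916%, 0.652% and 0.504%. Of the loci that both shLUC libraries held, 9.91% in genes over 500 kb and 4.10% in genes under 50 kb had no summit in any shHNRNPU library. This share of lost loci was 5.68% over all loci and 7.68% for loci outside genes. Of the loci that all 4 shHNRNPU libraries held, 4.89%, 4.95%, 4.18% and 3.4% had no shLUC summit, from the shortest class to the longest. This share of gained loci was 3.59% over all loci, and it did not fall steadily with gene length. These are counts without a test, and presence depends on the calling threshold of each library.

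The strongest lost loci with no shHNRNPU summit within 1000 bp lay in RIMS1, KIFC3, FRRS1, SYNDIG1L and KIZ. The locus at chr6:72245750 lay in RIMS1, which encodes a protein of the presynaptic active zone, 157.4 kb from the nearest gene end, and it scored 22.5 and 20.4 (−log10 q) in the shLUC libraries. The locus at chr16:57765005 lay in the kinesin gene KIFC3 and scored 19.8 and 22.5. The others scored between 13.7 and 17.2, at chr1:99737206 in FRRS1, a ferric reductase, at chr14:74445063 in SYNDIG1L, and at chr20:21214646 in KIZ, a centrosomal protein. None of the 5 lay within 500 bp of a listed start, and the nearest, in KIZ, was 3643 bp from the start of a long non-coding RNA.

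The strongest gained loci lay in PHC2, TFPI, CDC6, MLXIPL and PCID2. The locus at chr1:33342375 lay in PHC2, a member of Polycomb repressive complex 1, and scored 13.1, 14.6, 12.5 and 17.6 in the shHNRNPU libraries. The locus at chr2:187519824 in TFPI, an inhibitor of coagulation, scored 16.6, 21.4, 21.2 and 12.1. The locus at chr17:40296012 in CDC6, a DNA replication licensing factor, scored 18.4, 11.8, 9.66 and 13.2. The other loci were at chr7:73636495 in MLXIPL, a glucose-responsive transcription factor, with scores from 10.2 to 15.7, and at chr13:113179524 in PCID2, with scores from 8.19 to 12.4. Gene lengths ran from 16.8 to 107.5 kb here, against 62.7 to 516.6 kb for the genes with lost loci.

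The strongest gene-body loci present in every library were much stronger than these. The locus at chr4:122732626 in BBS12, a chaperonin-like protein of the primary cilium, scored from 97.1 to 127.5 and lay 78 bp from an internal start. The locus at chr7:122679452 in CADPS2, a regulator of vesicle release, scored from 86.1 to 102.9 with no listed start near it. The third, at chr17:49764234 in FAM117A, scored from 77.1 to 92.4 and lay 103 bp from an internal start. At all 3 the ranges of the shHNRNPU and shLUC scores overlapped.

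In score rank, gene-body summits lay below those of gene ends in every library. Their median percentile was 39.7, 40.7, 40.5 and 39.9 with shHNRNPU and 42.4 and 41.7 with shLUC, against 73.6 to 78.2 at gene ends. The difference of -1.85 percentile points in gene bodies was larger than the spread between libraries (exact permutation test, p = 0.133). In genes over 500 kb the medians were 37.9, 39.3, 38.6 and 39.6 against 39.5 and 37.4, with overlap, whereas under 50 kb they were 46.5, 47.3, 47.9 and 45.1 against 49.1 and 51.0, without it. The longest genes, with fewer summits in the shHNRNPU libraries, thus showed no separation in the rank of the summits that were called (difference 0.408, exact permutation test, p = 0.667).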

How the data were processed

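The authors deposited 1 list of 1 bp summits per library, with a score whose layout and values are those of a −log10 q-value computed within that library. Scores begin just above −log10 of 0.05 and are not normalized between libraries. Peaks were called per library. The submitters' processing notes name cutadapt, Bowtie2, SAMtools, MACS2, deepTools and the build hg38, and options are not given in the sources used here. The paper supplied with the series describes other libraries and was used for style only. Nuclei of 50000 cells were tagmented per library and amplified for 17 cycles.

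Summits were placed in the 20033 protein-coding genes of chromosomes 1 to 22, X and Y (RefSeq GRCh38.p14). A summit inside several genes (1.71%) was counted in each, and in the shortest for length classes. Strand and internal starts came from the RefSeq promoter table, which covered 79.1% of coding genes. Loci were built from the highest score percentile down, with summits within 250 bp absorbed. Single values were compared by exact permutation tests, two-sided, over the 15 ways of taking 2 libraries as controls. Counting was tested on simulated data. Alternatives were lists of one size, a minimum score of 5, a gene-end distance of 5000 bp, ends of genes of all biotypes, autosomes only, the longest gene for summits in several, counts per 10000 summits, a gap of 2 summits, permutation within repeats, and leaving out each library. For start distances and ratios to summits outside genes, which were added after seeing the data, a start distance of 1000 bp was also tried.

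Named genes were the 12 lower and 12 higher genes with the largest difference of mean counts, the 5 genes with most summits, and at most 4 called members of each list in each direction. Named loci were the 5 lost, 5 gained and 3 shared loci with the highest lowest percentile. The values of some genes are not reported here. Members and lists were chosen with earlier results of these data known. Depth is unknown, so no detection limit is given. Python 3.11.15, numpy 2.4.6, pandas 2.3.3, scipy 1.17.1 and matplotlib 3.10.9 were used.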

Additional observations from a re-analysis of the deposited data

Results flagged for a closer look

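In genes under 50 kb with gene-dense surroundings, shHNRNPU #2 repeat 1 had 5.18% of its summits, far below the other 3 shHNRNPU libraries at 5.41% to 5.43%. It was still above both shLUC libraries, which had 4.73% and 4.94%. It was the only library to stand apart in this way in 81 measures. About 4.05 would by chance if the measures were independent, but many count the same summits, so no chance number can be set.

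The 2 hairpins lay on opposite sides of the shLUC libraries in 6 measures, and no test of hairpin against hairpin was run (the difference was not tested). The share of gene-body summits was 0.389 points above shLUC with shHNRNPU #1 and -0.810 points from it with shHNRNPU #2. Genes of 50 to 200 kb held 352.5 summits more with shHNRNPU #1 (0.782 per Mb of gene body), with a difference of -737 (-1.63 per Mb) for shHNRNPU #2. In gene-dense surroundings the differences were 443.5 and -255 summits for genes of 50 to 200 kb and 108.5 and -139 for genes of 200 to 500 kb. At 2 to 10 kb from a gene end they were 296 and -300.5 summits. All 5 measures other than the share are absolute numbers, or numbers per Mb, and move with the length of the lists, which was 61287 summits on average with shHNRNPU #1, 55291 with shHNRNPU #2 and 61782 with shLUC.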

How the results depend on the processing

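Of 171 recalculated values, 148 kept the sign of their difference or, for counts, stayed within 1.5 times. Whether the groups still separated was not part of this count. The count includes the values with permutation within repeats, which could not change, since that setting alters only the p-value. The difference in share of genes of 50 to 200 kb was -0.0855 points when scores had to reach 5. With lists of one size the whole gene-body difference was 49.5 summits and 0.0949 points. Without shHNRNPU #2 repeat 2 the latter became 0.115. That share differed by -0.873 points with a minimum score of 5 and by -0.503 with a gene-end distance of 5000 bp. The class of 200 to 500 kb differed by -0.145 points with lists of one size, with overlap. Gained gene-body loci numbered 234 with a score of at least 5. Per 10000 summits 825 genes were higher, and with a gap of 2 summits 93 were lower and 19 higher. The difference of genes over 500 kb stayed between -0.831 and -0.540 points in these settings.

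Leaving out each library in turn gave 493 to 1339 lower genes, 277 to 659 higher genes, 1144 to 4976 lost and 590 to 1007 gained loci, since a call then asks less of fewer libraries. Lower genes numbered 1339 without shLUC repeat 1, 1275 without shLUC repeat 2 and 683 without shHNRNPU #1 repeat 2. Higher genes numbered 630 and 659 without those shLUC libraries, and 356 and 448 without shHNRNPU #2 repeats 1 and 2. Lost loci numbered 4976 and 4878 without shLUC repeats 1 and 2. Gained loci moved by over 1.5 times when any 1 of the 6 libraries was left out. The differences in share ranged from -0.502 to 0.115 points for gene bodies, 0.445 to 0.651 under 50 kb, 0.312 to 0.521 from 50 to 200 kb, -0.445 to -0.229 from 200 to 500 kb and -0.926 to -0.708 over 500 kb. The count of gene-body summits differed by -2044 to -414. Summits away from starts per 100 at starts differed by -771.02 to -304.9, and by -346 with a minimum score of 5 and -279 with lists of one size.

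Repeat numbers do not pair the libraries by any label, and the deviations of same-numbered libraries correlated at -0.0369, -0.0243 and 0.0151. With the replicate block the difference over 500 kb was -0.825 points and the lowest p 0.222 (exact permutation). Depth is unknown and limits every statement that a site lacks a summit.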
